A study of Homo sapiens with 12 samples.

Results

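The short arm of chromosome 9, 9p, carries CD274, the gene of the immune checkpoint ligand PD-L1, and was examined here with CD274 itself set aside. The arm was selected on the level of CD274, which was higher on the PC14CDDP arrays than on those of the other lines, and its members were then chosen by position alone. They are the probes that start before position 39 Mb of chromosome 9 (hg19), without CD274, its neighbours PDCD1LG2 and JAK2, CDKN2A, CDKN2B and the catalogued noncoding names that start with XLOC. This gave 409 of 50493 probes with a value, under 281 gene names. A probe that the scanner software flagged as well above its background is called detected below. Of the 281 names, 210 had a probe detected on at least 3 arrays and were tested, 71 were not, and 43 of those 71 were detected nowhere. The tested genes outside the arm numbered 21240, and 24914 genes were tested in all. The last member inside the limit was FAM201A, with means of -0.09 in PC14, -1.99 in PC14CDDP and 0.21 in A549, and the first probe outside it was CNTNAP3, with -0.91, -2.23 and 0.88.

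Messenger RNA was measured on 12 one-dye arrays of 3 lung adenocarcinoma cell lines. A549 and PC14 are established lines, and PC14CDDP is a cisplatin-resistant line made from PC14. Each line was transfected at 25 nM with premiR-197, which raises miR-197, with AllStar-NC as its control, with LNA-miR-197, an inhibitor of miR-197, or with LNA-miR-NC as the control of the inhibitor. Each combination was measured on 1 array, so the 4 arrays of a line differ in transfection, p-values rest on the spread between these arrays, and each kind of cell is represented by 1 line. The A549 arrays lay on a slide of their own, so this line and its slide cannot be told apart, and PC14 and PC14CDDP shared the other slide in a row each, so line and slide row cannot be told apart between them. Levels are the log2 of the processed signal relative to the 75th percentile of each array. In bulk RNA of this kind, more cells with a transcript and more RNA per cell cannot be told apart.

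Signal quality was similar across the series. Between 56.0% and 63.2% of all probes, and between 62.1% and 73.6% of the 9p probes, were detected per array, and the 4 highest shares for 9p were those of A549. The epithelial keratins KRT8, KRT18 and KRT19 were detected on every array, whereas the epithelial adhesion genes EPCAM and CDH1 were not on any PC14CDDP array. The lung lineage factor NKX2-1 was detected on the arrays of PC14 and PC14CDDP and on 0 of 4 of A549, and the surfactant gene SFTPB on none. The other lung lineage markers, NAPSA and SFTPC, were detected on every array. NAPSA was highest in A549 (mean -2.82, against -4.43 in PC14 and -5.20 in PC14CDDP). Of 4 leukocyte markers, PTPRC, CD14 and CD79A were detected on all arrays, with means from -3.87 to 2.13, and of 3 fibroblast markers COL1A1 was. The endothelial marker CDH5 was detected on all arrays, and PECAM1 on 4 of PC14, 0 of PC14CDDP and 1 of A549. Their part in the results was not tested.

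Genes that lie side by side can share expression for several reasons. A gained or lost stretch of chromosome alters the template of all its genes, open or closed chromatin can spread across neighbours, and a regulator can act on a single promoter through its own binding sites. CD274 is a gene of the last kind in many cells, since interferon signalling and STAT factors bind near its promoter. The arm also holds the relaxin and insulin-like hormone genes beside CD274, the type I interferon cluster and MTAP in band 9p21.3, and a gene-dense stretch near the centromere. Tumour cells often lose 9p21.3, and JAK2, CD274 and PDCD1LG2 are gained together in some lymphomas and carcinomas. The arrays measure RNA and not the number of gene copies.

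Promoters of 5 members are shown because the comparisons turn on them. PLGRKT and RIC1 are the nearest tested members on either side of the CD274 probe, INSL4 is the member near CD274 with the largest difference between lines, and KLHL9 and MTAP lie in the 9p21.3 block described later. Each is the 250 bases before the annotated start in RefSeq (GRCh38.p14), 5′ to 3′ on the strand of the gene, with CG dinucleotides in capitals.
PLGRKT, chr9:5437926-5438175, minus strand: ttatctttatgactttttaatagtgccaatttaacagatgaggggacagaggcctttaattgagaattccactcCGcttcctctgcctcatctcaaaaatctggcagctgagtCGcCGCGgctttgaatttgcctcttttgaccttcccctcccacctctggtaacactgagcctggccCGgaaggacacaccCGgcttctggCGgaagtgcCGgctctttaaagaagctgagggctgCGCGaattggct
RIC1, chr9:5628857-5629106, plus strand: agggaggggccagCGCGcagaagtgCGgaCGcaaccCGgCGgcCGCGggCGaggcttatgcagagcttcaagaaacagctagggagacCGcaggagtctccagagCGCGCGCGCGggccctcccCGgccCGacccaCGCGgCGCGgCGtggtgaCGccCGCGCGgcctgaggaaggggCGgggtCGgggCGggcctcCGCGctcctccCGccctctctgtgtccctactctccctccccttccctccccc
INSL4, chr9:5231169-5231418, plus strand: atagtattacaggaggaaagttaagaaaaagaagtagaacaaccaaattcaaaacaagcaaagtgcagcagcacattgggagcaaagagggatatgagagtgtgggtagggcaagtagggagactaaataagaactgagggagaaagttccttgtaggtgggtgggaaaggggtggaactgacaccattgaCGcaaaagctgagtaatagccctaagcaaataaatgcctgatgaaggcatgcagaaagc
KLHL9, chr9:21335405-21335654, minus strand: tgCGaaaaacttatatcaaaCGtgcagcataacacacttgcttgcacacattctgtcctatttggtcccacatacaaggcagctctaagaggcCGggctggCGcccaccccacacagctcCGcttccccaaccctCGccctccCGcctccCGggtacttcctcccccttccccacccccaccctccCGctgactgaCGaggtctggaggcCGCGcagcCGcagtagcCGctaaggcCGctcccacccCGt
MTAP, chr9:21802386-21802635, plus strand: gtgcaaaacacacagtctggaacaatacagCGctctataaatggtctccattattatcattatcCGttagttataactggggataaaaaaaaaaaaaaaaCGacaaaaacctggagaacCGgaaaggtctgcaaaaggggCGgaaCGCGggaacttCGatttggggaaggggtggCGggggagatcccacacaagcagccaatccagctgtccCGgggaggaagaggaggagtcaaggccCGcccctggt
They held 10 CG dinucleotides in PLGRKT, 32 in RIC1, 1 in INSL4, 16 in KLHL9 and 11 in MTAP, beside a median of 11 over all 35116 promoters of that length and of 18 over the 189 promoters of tested 9p members. The letters TTCNNNGAA, the usual core of a STAT site and the same on both strands, were in none of the 5. They were in 7 of the 189 promoters of tested 9p members (3.70%) and in 6.57% of all promoters. Of the 20 promoters of members near CD274, 1 held them, a start of AK3. A match or its absence describes these windows only.

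CD274 was the reference level for the arm. In PC14CDDP its log2 level was -2.51 after premiR-197, -1.97 after AllStar-NC, -0.42 after LNA-miR-197 and -1.95 after LNA-miR-NC. In PC14 the same transfections gave -4.90, -4.75, -3.51 and -4.82, and in A549 -4.09, -4.01, -3.60 and -4.25. All 4 PC14CDDP arrays were thus above the 8 arrays of the other lines, by a mean of 2.78 over PC14 and 2.27 over A549 on the log2 scale. These differences chose the arm and carry no test here.

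The 9p genes together did not move in PC14CDDP as CD274 did. Their median log2 difference between PC14CDDP and PC14 was 0.10, against 0.03 for the genes elsewhere, which leaves 0.07 (SD 0.02 over the 4 matched transfections). The separate transfections gave 0.07, 0.06, 0.02 and 0.04. On the scale of a single array, the median deviation of the arm from the rest of the genome was -0.02, -0.06, -0.16 and -0.06 in PC14CDDP, in the order of transfections above, and -0.08, -0.07, -0.07 and -0.10 in PC14. The ranges of these 2 lines overlapped. The PC14CDDP array with the highest CD274, that of LNA-miR-197, had the lowest level of the arm.

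Calls by gene gave the same picture. Of the 210 tested members, 55 were higher in PC14CDDP than in PC14 and 45 were lower at an adjusted p under 0.05 (limma), which is 26.2% and 21.4%, against 24.7% and 23.5% of all genes tested. For PC14CDDP above both other lines, the pattern of CD274, the count was 31 of 210 members (14.8%), against 15.8% of all genes tested. These shares are near the background. The 31 included the phosphatase gene PTPRD, the chemokine CCL27, the nuclear import receptor RANBP6 and the ubiquitin ligase UHRF2.

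Other chromosomes placed the arm inside the usual range. Medians for PC14CDDP against PC14 ran from -0.35 on chromosome 22 to 0.26 on chromosome 4 over the 22 other autosomes and arms, 9p ranked 7th from the highest of 23, and 9q, the long arm of the same chromosome, lay at 0.16. For A549 against PC14 the 9p median of 0.32 ranked 3rd of 23, below chromosomes 15 (0.38) and 7 (0.33). For PC14CDDP against A549 the median of -0.19 ranked 21st of 23.

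A549 was the line whose 9p genes stood apart. The arm shift, the median over members minus that over the rest, was 0.27 for A549 against PC14 (SD 0.04 over 4 matched transfections, range 0.19 to 0.29). Per array, the arm lay at 0.12 to 0.15 in A549, above all 8 arrays of the other lines. Of the members, 96 were higher in A549 than in PC14 (45.7%, against 35.9% of all genes tested) and 55 were lower (26.2%, against 32.3%). Part of this count rests on dim genes: 31 of the 96 were not detected on all 12 arrays. Of all tested members, 13 were detected in A549 alone. With only the 157 members detected on every array, the shift was 0.12 (SD 0.09), with 41.4% higher and 29.3% lower, against 35.76% and 35.81% of all genes detected on every array. Slide and line cannot be told apart in this comparison.

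Against A549, PC14CDDP showed the opposite sign of shift from CD274. The arm shift was -0.17 (SD 0.02 over 4 matched transfections), with 62 members higher (29.5%, against 33.6% of all genes tested) and 90 lower (42.9%, against 36.8%). Of the 90, 32 were not detected on all 12 arrays. With only the 157 members detected on every array, the shift was -0.10 (SD 0.04). Of those 157, 34.4% were higher and 36.9% lower, against 38.6% and 35.3% of all genes detected on every array. That lower share is near the background. CD274 itself was 2.27 higher in PC14CDDP in the same comparison.

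Position along the arm separated the genes of A549. In the 42 members below 10 Mb the shift of A549 against PC14 was 0.61 (SD 0.03 over transfections), in the 56 members between 10 and 30 Mb it was 0.62 (SD 0.07), and in the 112 members between 30 and 39 Mb it was -0.19 (SD 0.03). Restricted to genes detected on all 12 arrays, the 3 stretches gave 0.52, 0.51 and -0.14, from 29, 36 and 92 genes. The 2 outer stretches therefore lay above the rest of the genome and the stretch next to the centromere below it on either set of genes. In PC14CDDP against PC14 the same stretches gave 0.34 (SD 0.13), 0.13 (SD 0.05) and 0.01 (SD 0.03), and the first of these became 0.17 (SD 0.10) with genes on all arrays.

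Windows of 3 Mb gave a finer view, though only 2 held 20 genes or more. The window from 3 to 6 Mb, which holds CD274, had a median of 0.40 over 19 members for PC14CDDP against PC14, with 7 higher and 2 lower (36.8% and 10.5%, against 24.7% and 23.5% of all genes tested). The next one, from 6 to 9 Mb, had 0.50 over 10 members, with 6 higher and 1 lower (60.0% and 10.0%). Raised medians in this comparison were not limited to the surroundings of CD274. The window from 15 to 18 Mb had 0.45 over 11 members. That from 27 to 30 Mb had 0.89, the highest along the arm, over only 4 members. The window from 12 to 15 Mb had the lowest median, -0.33 over 10 members. The other windows with tested members ran from -0.10 to 0.18. For A549 against PC14 the window from 3 to 6 Mb had the highest median along the arm, 1.18, with 15 members higher and 1 lower (78.9% and 5.26%, against 35.9% and 32.3% of all genes tested). SPATA6L, A_24_P289043 and RLN1 in this window were detected in A549 alone, so they passed the filter only through the line where they are high. Within 1.5 Mb of the CD274 probe the median for this comparison was 0.70, and 0.48 over members detected on all arrays. Toward the centromere, the windows from 33 to 36 Mb and from 36 to 39 Mb held 74 and 28 members and gave 0.04 and 0.07 for PC14CDDP, and -0.15 and -0.16 for A549, against PC14.

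**Figure D1:**
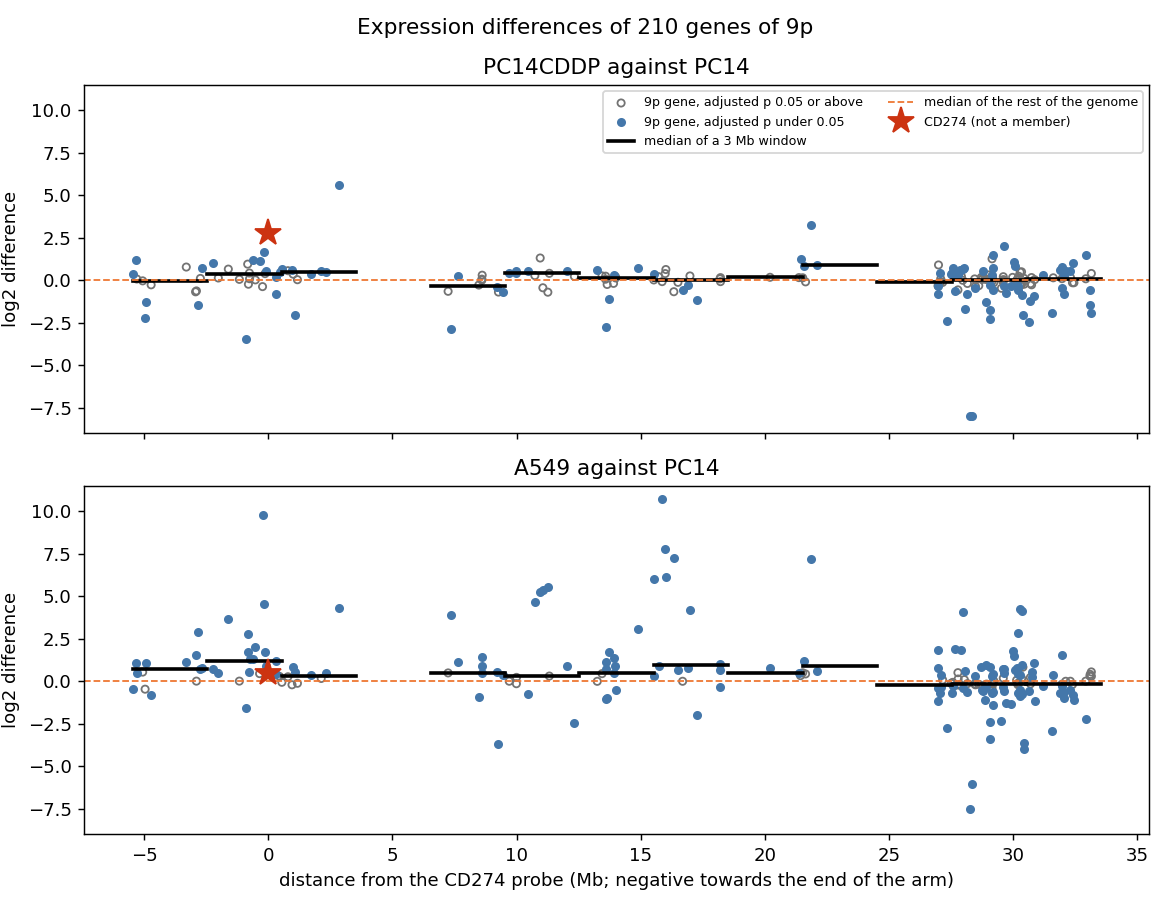
Log2 difference of each tested 9p gene against the distance of its probe from the CD274 probe in Mb, for PC14CDDP against PC14 (top) and A549 against PC14 (bottom). Filled points passed an adjusted p under 0.05, black bars are medians of 3 Mb windows, the dashed line is the median of the rest of the genome and the star is CD274. The star lies at 2.78 in the upper panel, where the window that holds it has a median of 0.40, and at 0.51 in the lower one, where that median is 1.18.

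The neighbourhood of CD274 moved in both directions in PC14CDDP. Within 1.5 Mb of its probe, 22 members were tested, of which 8 were higher and 3 were lower than in PC14, and 11 did not pass. These were 36.4% and 13.6%, against 24.7% and 23.5% of all genes tested. Their median difference was 0.39, and 0.16 over the 14 that were detected on all arrays. None of the 22 reached the difference of CD274: they ran from -3.46 in SLC1A1 to 1.66 in RLN2. Against A549, 2 of the same genes were higher in PC14CDDP and 12 were lower, or 9.09% and 54.5% against 33.6% and 36.8% of all genes tested. The median there was -0.70 over the 22 and -0.23 over the 14 detected on all arrays. Some of the lower ones, such as SPATA6L, A_24_P289043 and RLN1, were detected in A549 alone.

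PLGRKT, listed on the array as C9orf46, encodes a plasminogen receptor and is the nearest member, with its probe at chr9:5361103-5361162, 107.2 kb from that of CD274. Its levels in the order of transfections were 0.94, 0.96, 0.56 and 1.05 in PC14, 1.55, 1.74, 0.70 and 1.71 in PC14CDDP, and 2.06, 1.87, 1.33 and 1.74 in A549. It was 0.55 higher in PC14CDDP than in PC14 (SE 0.13, limma adjusted p = 0.0078), although the lowest PC14CDDP array lay within the PC14 range, and it was 0.87 higher in A549 than in PC14 (SE 0.13, adjusted p = 0.00036). The LNA-miR-197 array, on which CD274 was highest in every line, had the lowest PLGRKT in every line.

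RIC1, a Rab exchange factor subunit that acts in Golgi trafficking (listed as KIAA1432), lies 308 kb away on the other side. Its levels were -0.56, -0.73, -0.78 and -0.65 in PC14, -0.37, -0.28, -0.60 and -0.57 in PC14CDDP, and 0.58, 0.51, 0.44 and 0.46 in A549. The A549 arrays did not overlap with the others, and the difference from PC14 was 1.18 (SE 0.08, adjusted p = 4.6e-06). For PC14CDDP against PC14 it was 0.22 (SE 0.08, adjusted p = 0.0495), a call that was lost whichever of the 12 arrays was left out (adjusted p from 0.056 to 0.17). These values are of the brightest RIC1 probe. The dimmer probes A_24_P306136 and A_33_P3358521, detected on every array, differed more in that comparison, by 0.69 and 0.87.

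RCL1, an endonuclease of ribosomal RNA processing, showed the clearest increase among neighbours measured in every line. Its levels were 2.04, 1.97, 2.33 and 2.10 in PC14, 3.38, 3.39, 3.35 and 3.25 in PC14CDDP, and 3.55, 3.44, 3.47 and 3.31 in A549. The PC14 arrays were all below those of the other lines, by 1.23 for PC14CDDP (SE 0.09, adjusted p = 2.1e-05) and 1.33 for A549 (SE 0.09, adjusted p = 4.5e-06). PC14CDDP and A549 differed by -0.10, which did not pass (adjusted p = 0.35). AK3, a mitochondrial adenylate kinase gene close to RCL1, was 1.29 higher in A549 than in PC14 and 0.10 higher in PC14CDDP (adjusted p = 0.29). A dimmer AK3 probe, A_24_P247106, gave 1.41 and 0.41.

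The other neighbours detected in every line differed in direction. RANBP6 (0.65, SE 0.16, adjusted p = 0.010), UHRF2 (0.60, SE 0.12, adjusted p = 0.0035) and the bromodomain gene BRD10, listed as KIAA2026 (0.48, SE 0.13, adjusted p = 0.015), were higher in PC14CDDP than in PC14, and their differences between A549 and PC14 were -0.06, -0.21 and 0.28, none of which passed. The call for BRD10 was lost without the premiR-197 or the LNA-miR-197 array of PC14 (adjusted p = 0.052 and 0.053). SLC1A1, a glutamate transporter, GLDC, the glycine decarboxylase of the glycine cleavage system, and the endoplasmic reticulum peptidase gene ERMP1 fell in PC14CDDP, by 3.46, 2.04 and 0.80 on the log2 scale.

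SLC1A1 read -0.02, -0.25, -0.95 and -0.27 in PC14, -3.78, -3.50, -4.72 and -3.32 in PC14CDDP, and -1.77, -1.66, -2.18 and -2.20 in A549, so the 3 lines did not overlap. GLDC read 0.69, 0.77, 0.24 and 0.73 in PC14, -1.39, -0.91, -2.07 and -1.37 in PC14CDDP, and 1.56, 1.16, 0.96 and 0.97 in A549. The lowest of the 3 lines for both genes was PC14CDDP, the line with the highest CD274.

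The hormone genes beside CD274 were measured mainly in A549. INSL4, which encodes the insulin-like peptide placentin, lies 235 kb from the CD274 probe and read 1.99, 3.32, 2.08 and 2.41 in A549. It was not detected on any PC14 array and on 2 of 4 PC14CDDP arrays. The measured ratio of A549 to PC14 was 868-fold (limma adjusted p = 1.8e-08), a log2 difference of 9.76. Under the normexp background correction that difference was 5.93. Ratios given for a line with no detected array use the floor described in the processing section. They rest on signal at the background and are not lower limits. RLN2, a relaxin gene, measured 23.01-fold higher in A549 than in PC14 (limma adjusted p = 2.8e-05). RLN1, its near copy, measured 3.35-fold higher (adjusted p = 0.0033, 3 of 4 A549 arrays detected). RLN1 and RLN2 are closely similar in sequence, so either probe may read the other gene.

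Members near CD274 with weaker signal or no settled identity complete the 22. RLN2 was also higher in PC14CDDP, where 2 of 4 arrays were detected, than in PC14 (3.16-fold as measured, limma adjusted p = 0.012). Under normexp this log2 difference was 0.22. The unnamed probe A_33_P3314091 was detected on 4 of 12 arrays, and its call (1.13, adjusted p = 0.046) was lost without the LNA-miR-197 or LNA-miR-NC array of A549, any PC14 array but that of premiR-197, or any PC14CDDP array but that of AllStar-NC. PLPP6, a presqualene phosphatase, was higher in A549 than in PC14 (1.71, limma adjusted p = 1.3e-05). So were SPATA6L, 6.73-fold as measured, and the unnamed probe A_24_P289043, 3.96-fold as measured. Their differences between PC14CDDP and PC14 were -0.22, 0.96 and 0.03, which did not pass. The alarmin cytokine IL33 had differences of 0.57 and 0.26 from PC14 in PC14CDDP and A549, which did not pass (adjusted p = 0.061 and 0.32). CDC37L1, a relative of the chaperone cofactor CDC37, was 0.57 higher in A549 (adjusted p = 0.021) and differed by 0.44 in PC14CDDP (adjusted p = 0.077). LOC100287493, ENST00000355513 and the unnamed probe A_24_P84508 had differences of 0.06, 0.37 and 0.04 between PC14CDDP and PC14, none of which passed.

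In band 9p21.3 a run of genes was measured in A549 and not in PC14 or PC14CDDP. Of the 13 members tested within 1.5 Mb of the MTAP probe, 5 were detected on all 4 A549 arrays and on no array of the other lines: HACD4, KLHL9, MIR31HG, IFNE and DMRTA1. Over the whole arm 16 of 409 member probes had this pattern (3.91%), against 1.57% of all probes on the arrays. The reverse pattern, PC14 alone, was found for 1 member probe, of TMEM215, and PC14CDDP alone for 0. HACD4, KLHL9, MIR31HG, IFNE and DMRTA1 passed the filter only through A549, the line where they are high. Their count among tested members and their p-values therefore describe the pattern and do not test it.

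KLHL9, whose product directs a CUL3 ubiquitin ligase to mitotic Aurora B, read 2.73, 3.11, 3.08 and 3.101 in A549 with its probe at chr9:21331101-21331160. In PC14 it read -8.20, -7.59, -6.80 and -8.29 and in PC14CDDP -7.78, -7.80, -7.72 and -7.85, none detected. It measured 1697-fold higher in A549 than in PC14 (limma adjusted p = 1.0e-08), a log2 difference of 10.73. Under normexp that difference was 6.26. MIR31HG, the noncoding host of miR-31, measured 219-fold higher, and IFNE, the epithelial interferon epsilon, 68.8-fold. HACD4, a fatty acid elongation enzyme listed as PTPLAD2, measured 62.0-fold higher, and the transcription factor gene DMRTA1 18.1-fold.

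MTAP, the enzyme that salvages methylthioadenosine, had 3 probes with different results. The first, from chr9:21802766 to 21815476, read 0.76, 0.85, 0.21 and 0.62 in A549, was detected on 1 of 4 PC14 arrays (-5.51 after premiR-197, and -7.48, -6.67 and -6.81 on the others) and on none of PC14CDDP, where it read -7.21, -6.93, -6.54 and -8.45. The log2 difference between A549 and PC14 was 7.23 (SE 0.44, adjusted p = 2.25e-06). The 2 probes farther along the gene, which start at 21837969 and 21865830, were not detected on any array of any line, A549 included.

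Flanking genes did not share this pattern. FOCAD, a focal adhesion gene listed as KIAA1797 just before the run, read 3.29, 3.46, 2.99 and 3.33 in PC14, 3.44, 3.60, 2.69 and 3.46 in PC14CDDP, and 3.66, 3.78, 3.31 and 3.60 in A549. Its difference of 0.32 between A549 and PC14 (SE 0.10, adjusted p = 0.021) was lost without the LNA-miR-197 array of A549 or without the premiR-197, AllStar-NC or LNA-miR-NC array of PC14 (adjusted p from 0.057 to 0.067). MLLT3, a reader of histone acylation, was 3.09 higher in A549 than in PC14 and was measured in all lines. Inside the run, IFNA4, C9orf53, the transcript DA734158 and the unnamed probe A_32_P152696 were detected in PC14 and PC14CDDP as well as in A549. The first of these belongs to a family of near-identical interferon genes, so which member it reads is uncertain. Beyond the run the unnamed probe A_24_P84608 was lower in A549 than in PC14 (log2 difference -1.997, adjusted p = 8.0e-06).

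**Figure D2:**
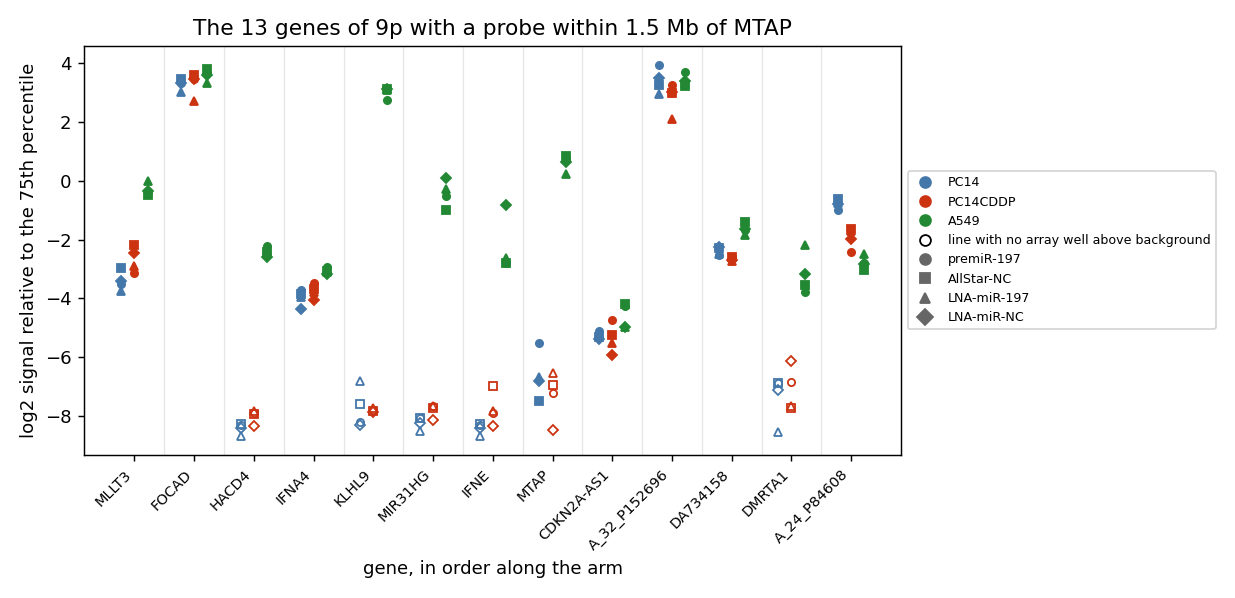
Log2 level of the 13 tested 9p genes with a probe within 1.5 Mb of the first MTAP probe, in order along the arm, on each of 4 arrays of PC14 (blue), PC14CDDP (red) and A549 (green). Open symbols mark a line in which no array was detected. HACD4, KLHL9, MIR31HG, IFNE and DMRTA1 have open symbols in PC14 and PC14CDDP and filled ones in A549, while FOCAD lies between 2.69 and 3.78 in all lines. CDKN2A-AS1 is the current name of C9orf53.

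Large differences were also found outside both neighbourhoods. PRSS3, a trypsinogen gene, read 3.81, 3.56, 4.07 and 3.95 in PC14, -4.23, -3.89, -4.15 and -4.28 in PC14CDDP, and -2.54, -2.57, -1.48 and -2.28 in A549. It fell by 7.99 in PC14CDDP (SE 0.20, adjusted p = 9.8e-08), and the transcript ENST00000444956 next to it fell by 7.99 as well. Trypsinogen genes have close copies on another chromosome, so the gene that the probe reads is uncertain. SCARNA8, a small Cajal body RNA, and LURAP1L were also among the 5 largest decreases. SCARNA8 fell by 2.73 on the log2 scale, and LURAP1L measured 7.10-fold lower. LURAP1L was not detected on any PC14CDDP array, and its log2 difference of -2.83 was -0.40 under normexp.

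PTPRD, a receptor tyrosine phosphatase that acts on STAT3, was not detected on any PC14 array and read -2.33, -2.78, -3.74 and -2.96 in PC14CDDP and -3.60, -4.26, -4.86 and -4.33 in A549. It measured 42.5-fold higher in PC14CDDP and 17.1-fold higher in A549 than in PC14 (limma adjusted p = 1.4e-07 and 1.2e-07). Under normexp the log2 differences of PTPRD were 1.503 and 0.83. MOB3B, a kinase activator of the MOB family, measured 9.13-fold higher in PC14CDDP and 142-fold higher in A549 than in PC14. With RLN2, ATOSB (2.05) and CCL27 (1.49) completed the 5 largest increases in PC14CDDP. In A549 against PC14 the largest decreases besides PRSS3 and its neighbouring transcript were HRCT1 (-3.99), the matrix gene FREM1 and LOC158376. FREM1 measured 13.1-fold lower and LOC158376 12.3-fold lower. Under normexp their log2 differences were -0.83 and -0.63. ENST00000450445, inside the BNC2 region, was 5.54 higher.

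Gene lists by function give the rest of the arm, and their counts are set against the 24.7% higher and 23.5% lower of all genes tested. Among 15 tested genes of the chromatin and transcription factor list, 8 were higher in PC14CDDP than in PC14 (53.3%) and 0 were lower, with a median of 0.56 against 0.03 for the genes elsewhere. The list also held genes of other kinds, among them the nuclear import receptor RANBP6, which was among the 8. Its share and median are therefore not those of chromatin and transcription factors alone. RFX3, a factor of ciliary gene programmes, rose by 1.01 (adjusted p = 0.00075) and MLLT3 by 0.74 (adjusted p = 0.018), a call lost without the LNA-miR-197 or LNA-miR-NC array of PC14 or the AllStar-NC or LNA-miR-NC array of PC14CDDP (adjusted p from 0.054 to 0.064). The zinc finger gene BNC2 and the chromatin remodeller SMARCA2 had differences of 1.32 and 0.79 that did not pass (adjusted p = 0.061 and 0.051). Among 15 metabolic enzymes 0 were higher and 5 were lower (33.3%), with a median of -0.15. These were GLDC, the galactosyltransferase B4GALT1 (-0.61), the glyoxylate reductase GRHPR (-0.44), the glycolipid anchor enzyme PIGO (-0.36) and the iron-responsive aconitase ACO1 (-0.32).

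Of 18 receptors, ligands and surface proteins, 5 were higher, 5 were lower and 8 did not pass, with a median of 0.01. Each direction held 27.8%, near the 24.7% and 23.5% of all genes tested. RECK, an inhibitor of matrix metalloproteinases, fell by 2.47 in PC14CDDP (limma adjusted p = 1.2e-05), or by 1.54 as a mean of its probes. CNTFR, the ciliary neurotrophic factor receptor, was detected on 3 of 4 arrays of PC14 alone and measured 4.64-fold lower in PC14CDDP. Its log2 difference was -0.27 under normexp. In the list of protein quality control and trafficking, 4 of 14 were higher (28.6%, near the 24.7% of all genes) and 1 was lower (7.14%, against 23.5%). The co-chaperone DNAJA1 rose by 0.71 (adjusted p = 0.0036), the membrane scission subunit CHMP5 rose by 0.49 (adjusted p = 0.0033), the ubiquitin-conjugating enzyme UBE2R2 fell by 0.44 (adjusted p = 0.0046), and DNAJB5 had -0.46 (adjusted p = 0.081).

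Of 12 genes of mitosis, repair, the cytoskeleton and RNA, 5 were higher in PC14CDDP (41.7%, against 24.7% of all genes tested) and 1 was lower (8.33%, against 23.5%). After RCL1 the members with the largest differences were the DNA end-processing enzyme APTX (0.36, adjusted p = 0.015), the mitotic kinase MELK (0.31, adjusted p = 0.013) and the ribosomal protein RPS6 (0.31, adjusted p = 0.0050). The first was lost without the LNA-miR-197 array of PC14 (adjusted p = 0.053) and the second without its premiR-197 array (adjusted p = 0.054). Of the type I interferon cluster, 13 of 17 genes had a probe, and 10 of the 14 interferon probes on the arm were not detected on any array. The 2 that were tested, IFNE and IFNA4, were higher in A549 than in PC14 and had differences of 0.64 and 0.22 between PC14CDDP and PC14 that did not pass (adjusted p = 0.28 and 0.074).

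In A549 against PC14 the same lists gave 7 higher and 5 lower of 15 metabolic enzymes, 8 and 2 of 15 in the chromatin and transcription factor list, 10 and 5 of 18 receptors, ligands and surface proteins, 4 and 5 of 14 in protein quality control and trafficking, and 4 and 4 of 12 in the last list. Over all genes tested the shares were 35.9% higher and 32.3% lower. Over these 5 lists the higher shares ran from 28.6% in protein quality control to 55.6% in receptors, and the lower ones from 13.3% in chromatin and transcription factors to 35.7% in protein quality control.

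Between transfections the arm stayed close to the rest of the genome. After LNA-miR-197 against LNA-miR-NC the arm shift was -0.04 (SD 0.02 over 3 lines) while CD274 differed by 1.17, and after premiR-197 against AllStar-NC the shift was -0.03 (SD 0.02) while CD274 differed by -0.25. Of 210 members 6 were higher and 9 were lower after LNA-miR-197, which is 2.86% and 4.29%, against 3.74% and 3.89% of all genes tested. After premiR-197 limma called 0 members in either direction, against 0.0843% and 0.132% of all genes tested, and 34 members (16.2%) had an unadjusted p under 0.05, against 16.4% of all genes. Transfection and slide column cannot be told apart.

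Among the members called after LNA-miR-197, PLGRKT fell by 0.64 (SE 0.15, adjusted p = 0.041), with log2 ratios of -0.49 in PC14, -1.01 in PC14CDDP and -0.42 in A549, and AK3 fell by 0.45 (SE 0.08, adjusted p = 0.024). Both lie near CD274 and moved against it in all 3 lines. PLGRKT, AK3 and CHMP5 were picked for this contrast after their values were seen. CHMP5 rose by 0.58 (SE 0.11, adjusted p = 0.028), with 0.41, 0.90 and 0.44 in the 3 lines. BAG1, a cochaperone of HSP70, chosen after its values were seen because its adjusted p was the lowest of the members (0.010), rose by 0.79 (SE 0.08), with 0.81, 0.81 and 0.75. These calls are close to the threshold: with single arrays left out the adjusted p ran from 0.050 to 0.18 for PLGRKT, lost for 11 of 12 arrays, the exception being the LNA-miR-197 array of PC14. It ran from 0.036 to 0.11 for AK3, lost for 7 arrays (the 4 of PC14, LNA-miR-NC of A549, and LNA-miR-197 and LNA-miR-NC of PC14CDDP), and from 0.035 to 0.13 for CHMP5, lost for 6 of the same arrays, the exception being the LNA-miR-197 array of PC14. For BAG1 it ran from 0.018 to 0.079, lost without the LNA-miR-NC array of PC14CDDP.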

How the data were processed

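One-dye Agilent arrays of 12 samples, 1 for each of 4 transfections in each of 3 lines, were used. Agilent Feature Extraction, version 10.7.3.1, read the scans, and the authors deposited, per the file headers, the spot intensity as a processed signal that is background-subtracted and not scaled between arrays, together with mean, local background and flags per spot. The deposited table of intensity values equals that signal. Scaling by the authors is not given in the sources used here. Here control and outlier spots were left out, spots of a probe were averaged, and log2 of the signal minus the log2 of the array's 75th percentile (614 to 715 units) was taken. The log2 values are thus computed here from the deposited intensity. Of 50599 probes, 106 with a missing value were dropped. Probes flagged well above background (called detected) on at least 3 of 12 arrays were kept, and the brightest probe of a gene on the arm stood for it. Symbols came from the RefSeq table (GRCh38.p14) through accessions, which matched 28170 probes (55.7%), and others kept the file's name. Probe positions are hg19 as in the files, and the promoters are RefSeq's on GRCh38.p14. Of the tested members, 2 carry the name of a gene on another chromosome.

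limma 3.58.1 (R 4.3.3) was fitted to 12 arrays with line and transfection as terms, with eBayes and Benjamini-Hochberg adjustment over 24914 genes, and an adjusted p under 0.05 was called. In simulated arrays for PC14CDDP against PC14 with 24914 genes, it recovered 0 of 200 genes changed by a log2 of 0.5, 130 of 200 changed by 1 and 175 of 200 changed by 2. Only 200 genes were changed there, whereas 24.7% of genes were called higher and 23.5% lower in the data. The adjustment for multiple tests therefore differs, and these rates do not carry over to the data. The arm shift is the median difference of members minus that of the other mapped genes, with its SD over transfections (lines for the transfection contrasts) and no test. For a line in which a probe was detected on no array, a ratio with a floor is given. Each array of that line took the larger of 2 signals, that of the probe and the lowest of any detected probe, and their mean was set against the mean of the brighter line. That floor lay below the signal of undetected probes such as KLHL9 and INSL4, where the ratio is the plain difference of means. The ratio is therefore not a lower limit.

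Named genes were those within 1.5 Mb of the CD274 or first MTAP probe, the 5 largest increases and decreases in PC14CDDP and in A549 against PC14 among called members detected on at least 6 arrays, and up to 4 members of each list with the largest difference in PC14CDDP against PC14. Members beyond that rule were chosen after their values were seen. These were ACO1 and PIGO in the lists, and PLGRKT, AK3, CHMP5 and BAG1 for the LNA-miR-197 contrast. The arm, its members and the lists were chosen with earlier results of these data known. The alternatives were quantile normalization, normexp with an offset of 50, the deposited table, other filters on dim probes, other ways to combine probes, other terms and arrays in the fit, a trended robust prior, the left-out genes added back, and each array left out. Tables and plots were made in Python 3.11.15 (pandas 2.3.3, numpy 2.4.6, matplotlib 3.10.9).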

Additional observations from a re-analysis of the deposited data

Results flagged for a closer look

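For each line, the 4 arrays of the arm shift and of every named gene detected on all 4 arrays were searched for 1 array far from the other 3, in 142 sets, of which chance alone flags about 1 in 20. In 8 sets the gap between the far array and its nearest neighbour, as a share of the range, was above Dixon's 95% critical value. CHMP5 was flagged in all 3 lines, each time for a high LNA-miR-197 array: 4.30 against 3.85 to 3.92 in PC14 (share 0.853), 5.10 against 4.21 to 4.32 in PC14CDDP (share 0.871), and 4.10 against 3.63 to 3.66 in A549 (share 0.938). In PC14, GLDC was low after LNA-miR-197 (0.24 against 0.69 to 0.77, share 0.844). After premiR-197 in PC14, PLPP6 (-1.62 against -1.09 to -1.04, share 0.899) and UHRF2 (0.03 against 0.40 to 0.43, share 0.917) were low. In A549, IFNE was high after LNA-miR-NC (-0.84 against -2.79 to -2.61, share 0.909) and KLHL9 was low after premiR-197 (2.73 against 3.08 to 3.11, share 0.916). Their causes were not tested.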

How the results depend on the processing

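There was 1 array for each line and transfection, and differences of dim probes depended on the background correction. Of 250 values of arm shifts, counts of calls and CD274 under 24 alternatives, 221 stayed within the spread of the reported value, and the sign of no shift and no CD274 difference turned. The shift of A549 against PC14 (0.27) became 0.0876 under normexp, 0.12 without a filter on dim probes, 0.12 with probes detected on all 12 arrays and 0.35 with each probe as a feature, and 0.23 to 0.30 with single arrays left out. That of PC14CDDP against PC14 (0.07) became 0.0199 under normexp, 0.0304 under quantile normalization, 0.0339 without a filter, 0.0866 with the mean of the probes and 0.10 with each probe as a feature, and 0.0477 to 0.0812 with arrays left out. That of PC14CDDP against A549 (-0.17) became -0.0900, -0.19, -0.0705, -0.19 and -0.20 in that order of settings, -0.10 with probes detected on all 12 arrays, and -0.19 to -0.17 with arrays left out. After LNA-miR-197 (-0.04) it became -0.0176 under normexp, -0.00701 with the mean of the probes, -0.0189 with each probe and -0.0186 with probes detected on all 12 arrays, and -0.0452 to -0.00529 with arrays left out, the last without the LNA-miR-197 array of PC14. After premiR-197 (-0.03) arrays left out gave -0.0529 to -0.0179. Counting each probe gave 154 calls for PC14CDDP against PC14 in place of 100, over more features. CD274 in PC14CDDP differed by 1.47 from PC14 and by 1.25 from A549 under normexp, which adds a constant to every signal. Differences of dim members shrank there too, between A549 and PC14 to 6.26 for KLHL9, 5.93 for INSL4 and 4.28 for MTAP, and between PC14CDDP and PC14 to 1.503 for PTPRD and 0.51 for MOB3B. The lines are matched by transfection, which the fit holds as a term. Without it the calls were 75 in place of 100 for PC14CDDP against PC14, 130 in place of 151 for A549 against PC14, and 136 in place of 152 for PC14CDDP against A549.

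Of 77 comparisons of named genes, 46 kept direction and side of the threshold in every alternative. Direction turned in 7, of which none had passed the test. In PC14CDDP against PC14 these were A_24_P289043 (-0.0145 under quantile normalization, and -0.13 to 0.36 with arrays left out), A_24_P84508 (-0.0148 under quantile normalization), LOC100287493 (-0.0799 to 0.16 with arrays left out), and under normexp INSL4 (0.0355), MTAP (0.00240) and SPATA6L (-0.0320). In A549 against PC14 it was A_32_P152696 (0.0567 under normexp, 0.14 under quantile normalization, and -0.17 to 0.0629 with arrays left out). Without a transfection term, PLGRKT, CHMP5, GRHPR, UBE2R2, APTX, MELK, RIC1 and A_33_P3314091 no longer passed in PC14CDDP against PC14 (adjusted p from 0.056 to 0.27), nor did FOCAD in A549 against PC14 (adjusted p = 0.18), while BNC2 passed (adjusted p = 0.041). The causes were not tested.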
